A study of Danio rerio with 6 samples.

Results

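Solute carriers are membrane proteins that move amino acids, sugars, ions, metals, vitamins and metabolites across the plasma membrane and the membranes of organelles. They work as facilitators, exchangers or cotransporters, and most draw on ion or substrate gradients rather than on ATP. In the fish embryo, nutrients stored in the yolk reach the cells through the yolk syncytial layer, the layer of nuclei at the yolk surface, where slc40a1 and slc26a1 are known to be expressed. The genes described here are those whose symbol marks them as a numbered solute carrier or an organic anion transporter of the slco family. On the arrays, 367 of 38489 targets carried such a name, a target being the set of probes designed for 1 transcript. They gave 262 genes, each represented by its target with the highest mean in the authors' value table.

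Total RNA came from whole zebrafish embryos collected at the sphere stage, during the blastula period and after the onset of zygotic transcription. One group of 3 arrays was of embryos injected with nanog-like-MO1, a morpholino against nanog-like (now nanog, a homeobox factor supplied by the mother), whose phenotype is labelled as a gastrulation defect. The other group of 3 arrays was of embryos injected with a control-MO, whose phenotype is labelled as normal. Embryos of both groups were grown in E3 fish water, and the labels used here name no strain. The labels call the 3 samples of each group biological replicates of separate cultures, and a second morpholino or a rescue by nanog RNA was not analysed here. A morpholino blocks translation or splicing and need not lower its transcript. The nanog target read 14.93, 14.93 and 14.82 on the log2 scale in nanog-like-MO1 embryos, against 14.90, 14.98 and 14.85 in control-MO embryos, and the groups overlapped. Its log2 fold change was -0.02 (SE 0.10, limma adjusted p = 0.983), so this transcript does not check the knockdown.

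All levels below are log2 values of the mean probe intensity of a target after background correction and quantile normalization, and all fold changes are nanog-like-MO1 over control-MO. Tests are limma's, adjusted by Benjamini-Hochberg across the 38489 targets, and a gene passes at an adjusted p under 0.05. Median raw intensities of the 6 arrays ran from 408 to 529. Precision is limited by how many arrays there are. Array numbers fall into ranges, 1 of which holds all 3 control-MO arrays and nanog-like-MO1 replicate 3, while the other nanog-like-MO1 arrays lie elsewhere. Within that range only 1 nanog-like-MO1 array can be set against the controls. In RNA from whole embryos, fewer cells of a type and less RNA per cell cannot be told apart.

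Most solute carrier genes differed little between the groups. Of the 262 genes, 1 rose (slc5a1) and 2 fell (slc43a2b and slc13a4), which is 1.15% of them, against 0.647% of all targets called in either direction. The percentage called was 0.257% higher and 0.39% lower over all targets. The median log2 fold change of the genes was -0.05, against -0.01 for all targets, and single genes ran from -2.41 to 1.86. A fitted difference of at least 2-fold was seen for 7 genes, against 1.76% of all targets. At an unadjusted p under 0.05 there were 16 genes higher and 23 lower, or 14.9% of the genes, against 10.3% of all targets (5.3% higher and 5.03% lower). The 3 arrays of each group did not overlap for 18 genes that were higher and 34 that were lower, or 19.8%, against 15.3% of all targets (7.36% higher and 7.97% lower). Each gene is represented by its brightest target, while all targets include dim, unnamed and reverse-strand ones. The shares of the genes and of all targets are therefore not matched for level. Fitted values below 0 were found for 61.8% of the genes and 53.0% of all targets. When arrays were centred on 14 reference genes instead, the median was 0.04 for the solute carrier genes and 0.08 for all targets, so the sign of the median depends on the scaling.

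**Figure D1:**
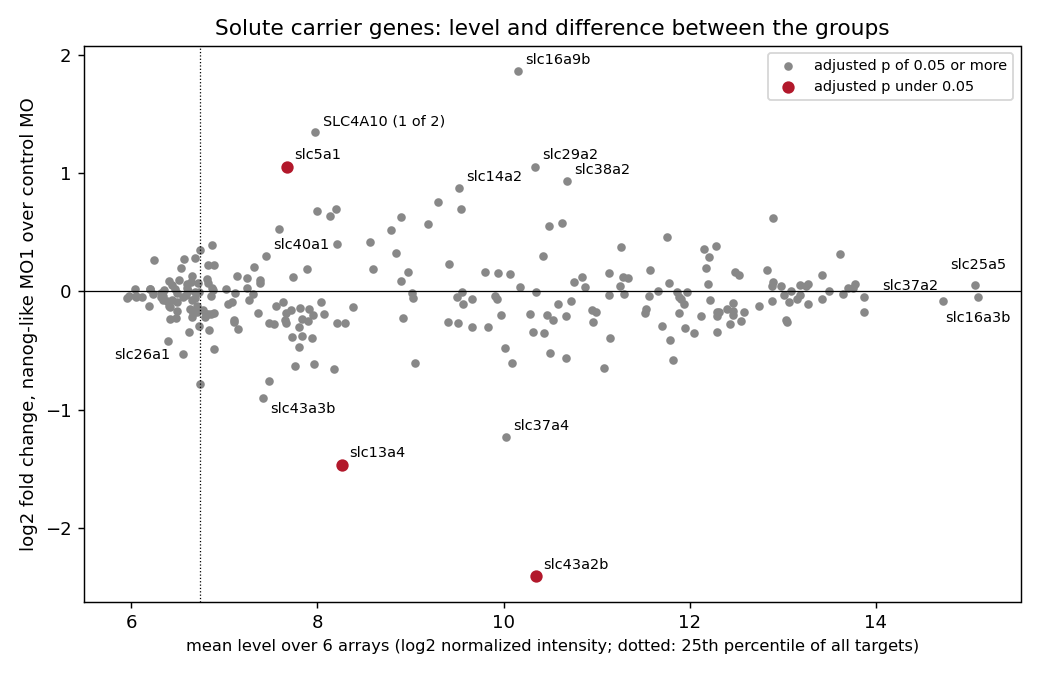
Each point is 1 of the 262 solute carrier genes, placed by its mean level over the 6 arrays (log2 normalized intensity, x axis) and its log2 fold change, nanog-like-MO1 over control-MO (y axis). The 3 genes with an adjusted p under 0.05 are red, at -2.41 (slc43a2b), -1.46 (slc13a4) and 1.05 (slc5a1); most genes lie close to 0, and the brightest targets on the right differ little.

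The gene with the largest difference was slc43a2b, whose mammalian counterpart LAT4 lets leucine, phenylalanine and other large neutral amino acids pass along their gradient. Its target (ZV700S00004830) spans 15019020 to 15026130 on chromosome 10 of the Zv7 assembly. The level was 9.37, 8.86 and 9.20 in nanog-like-MO1 embryos, against 11.46, 11.46 and 11.73 in control-MO embryos. All 3 nanog-like-MO1 arrays were far below all control-MO arrays. The gene fell by 2.41 on the log2 scale (SE 0.16, 95% interval -2.80 to -2.02, limma adjusted p = 0.00293), which is 5.31-fold lower. Its second target (ZV700S00003309) read 6.74, 6.72 and 6.51 in nanog-like-MO1 embryos, against 8.26, 7.80 and 8.37 in control-MO embryos. This dimmer target also had groups that did not overlap, and fell by 1.48 (SE 0.17, adjusted p = 0.0228). In the authors' value table the first target held 539, 409 and 487 in nanog-like-MO1 embryos, against 1659, 1621 and 1898 in control-MO embryos, a log2 fold change of -1.86 (limma on those values, adjusted p = 0.0026). Nanog-like-MO1 replicate 3 alone differed from the controls of its own array number range by -2.35. The symbol comes from a map marker on the target's own chromosome, and the array design gives SLC43A2 as the human homologue. That the gene is the b copy rather than slc43a2a rests on a clone synonym in the gene table and is less sure than the family.

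The gene slc13a4 encodes a counterpart of the sodium-dependent sulfate cotransporter NaS2 of mammals. Its target (OTTDART00000032447) lies at 2896109 to 2924560 on Zv7 chromosome 4. The level was 7.53, 7.50 and 7.56 in nanog-like-MO1 embryos, against 8.76, 8.93 and 9.28 in control-MO embryos. The nanog-like-MO1 arrays lay close together and below every control-MO array. The fold change was -1.46 (SE 0.15, 95% interval -1.82 to -1.10, limma adjusted p = 0.0133), or 2.76-fold lower. A second target of slc13a4 gave the same fold change of -1.46 with a wider error (SE 0.26) and an adjusted p of 0.106. In the authors' value table this second target was at -1.33 and did not pass (limma adjusted p = 0.252). The fold change of the first target there was -2.04 (limma adjusted p = 0.0094). The call was lost on leaving out each nanog-like-MO1 array in turn (limma adjusted p between 0.0702 and 0.0758) and without control-MO replicate 2 (0.0535). Against the controls of its own array number range, nanog-like-MO1 replicate 3 alone differed by -1.43.

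One gene was called higher, slc5a1, the counterpart of the intestinal sodium-glucose cotransporter SGLT1. Its target (OTTDART00000028378) lies at 10385045 to 10409175 on Zv7 chromosome 10. The level was 8.30, 8.33 and 7.96 in nanog-like-MO1 embryos, against 6.95, 7.26 and 7.22 in control-MO embryos. The groups did not overlap, and the fold change was 1.05 (SE 0.15, 95% interval 0.70 to 1.41, limma adjusted p = 0.0474), or 2.08-fold higher. The authors' value table did not show this difference. There the target held 28.2, 26.6 and 22.8 in nanog-like-MO1 embryos, against 21.99, 29.2 and 25.1 in control-MO embryos, a log2 fold change of 0.03 (limma adjusted p = 0.982). The probes of this target disagreed more in nanog-like-MO1 embryos: their mean coefficient of variation was 1.29, against 0.731 in control-MO embryos. The part of the probes in the difference was not tested. The call was also lost on leaving out each of the 6 arrays in turn (limma adjusted p between 0.0725 and 0.184), without background correction (0.0628) and with an intensity trend (0.0685). Against the controls of its own array number range, nanog-like-MO1 replicate 3 alone differed by 0.82.

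Of the genes known from the yolk syncytial layer, slc26a1 was lower in nanog-like-MO1 embryos on every array but did not pass the threshold. Its mammalian counterpart exchanges sulfate for other anions. The target (ZV700S00005744, at 12076931 to 12077871 on Zv7 chromosome 21) was named by a map marker, and the design gives both SLC26A1 and SLC26A2 as human homologues, so probes for these relatives cannot be told apart here. The level was 6.20, 6.36 and 6.31 in nanog-like-MO1 embryos, against 6.82, 6.86 and 6.78 in control-MO embryos. These levels are near the lower end of the array: 19.9% of all targets were dimmer. The groups did not overlap, and the log2 fold change was -0.53 (SE 0.10, 95% interval -0.76 to -0.29, limma adjusted p = 0.112). The authors' value table held 11.3, 14.5 and 11.9 in nanog-like-MO1 embryos, against 33.7, 41.7 and 32.9 in control-MO embryos. On those values the fold change was -1.52 (limma adjusted p = 0.0094). No detection call was used here, so it is not known whether the nanog-like-MO1 values were above background, and the size of the difference is uncertain. From the per-array intensities it was -0.84 with a normexp offset of 16 in place of 50 (adjusted p = 0.0661) and -0.35 without background correction (adjusted p = 0.152).

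The other such gene is slc40a1, which encodes ferroportin, the iron exporter whose loss in zebrafish leaves embryos short of iron from the yolk. Its target (OTTDART00000003995) read 7.49, 7.40 and 7.90 in nanog-like-MO1 embryos, against 7.68, 6.98 and 7.22 in control-MO embryos. The groups overlapped, since control-MO replicate 1 was above 2 of the nanog-like-MO1 arrays. The fold change was 0.30 (SE 0.22, 95% interval -0.23 to 0.83, limma adjusted p = 0.747), and a second target gave 0.35 (adjusted p = 0.742). Nanog-like-MO1 replicate 3, the highest array, alone differed from the controls of its own array number range by 0.61. The interval runs from a small decrease to an increase of 0.83, so 3 arrays per group do not settle the direction of any difference.

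Markers of the yolk syncytial layer differed among themselves. Of 14 listed genes, 12 had a target: 3 fell, none rose and 9 did not pass (median log2 fold change -0.35). Over all targets, 0.39% fell and 0.257% rose. The 3 genes that fell encode transcription factors of that layer and of endoderm. They were hnf4a (-3.004, limma adjusted p = 0.0157), gata6 (-2.37, adjusted p = 0.0206) and mxtx2 (-2.69, adjusted p = 0.0444). Of the 12 genes, 9 had fitted values below 0, against 53.0% of all targets. Among those that did not pass, hnf1ba was at -1.48 (limma adjusted p = 0.22) and mttp at -0.57 (adjusted p = 0.394). For both of these genes the groups lay apart. The apolipoprotein gene apoeb, the brightest of the list, was at -0.09, apoa4b.1 at -0.18 and apobb.1 at -0.04. The transferrin gene tfa was at 0.002 and gata5 at 0.51. The summed linear level of the list, which includes slc26a1 and slc40a1, was 12033 to 16636 in nanog-like-MO1 embryos, against 16537 to 21967 in control-MO embryos. This sum rests mostly on the brightest targets, apoeb (mean level 13.06), tfa (11.39) and mxtx2 (10.67). Dim markers add little to it, so it does not describe the list evenly. On nanog-like-MO1 arrays hnf4a read 6.10, 6.63 and 6.08, under the 25th percentile of all targets (6.74), against 8.57, 9.63 and 9.62 in control-MO embryos. The part of this layer in the differences of slc43a2b, slc13a4 and slc26a1 was not tested. For the enveloping layer, the outer epithelium, 11 of 13 listed markers had a target and none passed the test. Its summed level was 40528 to 59926 in nanog-like-MO1 embryos, against 31720 to 55513 in control-MO embryos. The largest differences were at evpla (2.16, limma adjusted p = 0.131) and cldne (0.64, adjusted p = 0.373). On the authors' value table evpla was at 2.51 and passed (limma adjusted p = 0.0452), while cldne did not (0.52, adjusted p = 0.511). Of 7 germ plasm markers, 4 had a target and none passed (dnd1 0.12 and tdrd7a 0.11), with a summed level of 25713 to 31760 in nanog-like-MO1 embryos, against 25840 to 28320 in control-MO embryos. The 14 reference genes had a median of -0.05 and none passed (gapdh -0.23 and b2m -0.22).

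**Figure D2:**
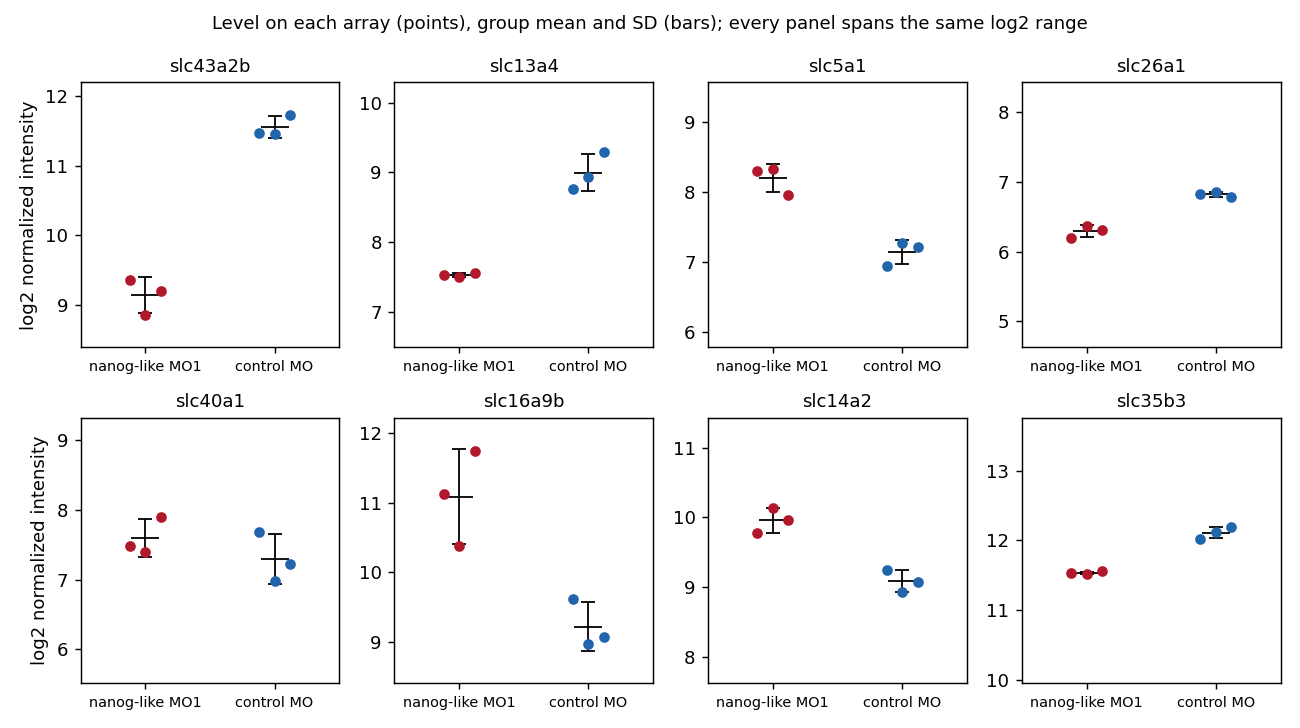
Level of 8 solute carrier genes (log2 normalized intensity, y axis) on each of the 3 nanog-like-MO1 arrays (red, left) and the 3 control-MO arrays (blue, right), with group means and SDs as bars and the same span in every panel. The groups lie apart for slc43a2b, slc13a4, slc5a1, slc26a1, slc16a9b, slc14a2 and slc35b3, and overlap for slc40a1.

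Transporters with a bright target at this stage came from many families, and none of the 12 brightest passed the test. Brightness depends on the probes as well as on the RNA, so this order is not an order of abundance. In the authors' value table the highest means were those of slc16a3b (38857), a counterpart of the lactate exporter MCT4, slc25a5 (32890), a mitochondrial ADP/ATP carrier, and slc37a2 (29258), a sugar phosphate exchanger. The other 9 were slc35f6, slc12a2 (a sodium-potassium-chloride cotransporter), slc25a25a (a mitochondrial ATP-magnesium/phosphate carrier), slc25a33 (a mitochondrial pyrimidine nucleotide carrier), slc38a7 (a lysosomal glutamine transporter), slc48a1b (a heme transporter), slc43a1a (an amino acid transporter related to slc43a2b), slc23a2 (a vitamin C transporter) and slc7a6 (a cationic amino acid exchanger). Their means ran from 16516 for slc35f6 to 10216 for slc7a6. The level of slc16a3b was 15.16, 14.99 and 15.06 in nanog-like-MO1 embryos, against 15.23, 15.11 and 15.01 in control-MO embryos. These groups overlapped, with a log2 fold change of -0.04 (SE 0.11). Of the 12 genes, slc23a2 had the largest difference. It read 13.87, 13.69 and 13.76 in nanog-like-MO1 embryos, against 13.55, 13.46 and 13.37 in control-MO embryos, so that the groups lay apart, at 0.31 (limma adjusted p = 0.375). The others lay between -0.17 (slc25a33) and 0.14 (slc48a1b).

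Of the levels of these chosen targets, 69 of 262 (26.3%) lay above the 75th percentile of all targets and 53 (20.2%) below the 25th. For the 78 genes with several targets the brightest stands for the gene, which raises these levels by construction, so the shares describe the chosen targets and are no comparison with all targets. The nucleotide sugar transporters, grouped by family number as the whole slc35 family, had 9 of 17 genes above the 75th percentile, and metal transporters 9 of 18. Carriers of nucleotide sugars feed glycosylation in the Golgi and endoplasmic reticulum, but the group also holds other slc35 genes, such as the activated sulfate carrier slc35b3. The organic ion, bile acid, urea and drug transporters, a group best known from liver and kidney, had 0 of 21 there and 9 of 21 below the 25th percentile. Mitochondrial carriers of the slc25 family had 3 of 43 below the 25th percentile.

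Amino acid and peptide transporters were the largest group by family number, with 48 genes, of which 1 fell (slc43a2b), none rose and 47 did not pass (median -0.07). Among the genes that did not pass, the system A glutamine and alanine transporter slc38a2 read 10.93, 10.85 and 11.65 in nanog-like-MO1 embryos, against 10.27, 10.11 and 10.25 in control-MO embryos. The groups did not overlap, nanog-like-MO1 replicate 3 was the highest, and the log2 fold change was 0.93 (SE 0.22, limma adjusted p = 0.216). The neutral amino acid exchanger slc1a4 was at 9.54, 10.16 and 9.96 in nanog-like-MO1 embryos, against 9.11, 9.21 and 9.25 in control-MO embryos, again apart, at 0.70 (SE 0.17, adjusted p = 0.23). The proline transporter slc6a7 also gave 0.70, but its groups overlapped (adjusted p = 0.73).

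On the lower side of the same group, slc43a3b read 6.83, 6.80 and 7.26 in nanog-like-MO1 embryos, against 7.47, 7.91 and 8.21 in control-MO embryos. The groups lay apart, at -0.90 (SE 0.22, adjusted p = 0.233). It is a relative of slc43a2b whose human counterpart carries nucleobases rather than amino acids. The heavy chain gene slc3a2a, whose product escorts slc7 amino acid exchangers to the surface, was at 7.88, 7.96 and 7.70 in nanog-like-MO1 embryos, against 8.35, 8.43 and 8.72 in control-MO embryos. These groups did not overlap either, at -0.65 (SE 0.14, adjusted p = 0.154). The glutamine transporter slc38a5b had the same fold change of -0.65 with overlapping groups and a much larger error (SE 0.57, adjusted p = 0.794). The other 2 members of the slc43 family were near 0: slc43a1a at -0.05 and slc43a1b at -0.09.

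The slc16 family is named for monocarboxylate transport, and some of its members, but not all, carry lactate, pyruvate and related acids. None of the 10 genes passed the threshold, while at an unadjusted p under 0.05 limma gave 1 higher and 2 lower (10.3% of all targets were under it in either direction). The largest positive fold change among all 262 genes was that of slc16a9b. It read 11.12, 10.38 and 11.74 in nanog-like-MO1 embryos, against 9.62, 8.97 and 9.07 in control-MO embryos. Every nanog-like-MO1 array was above every control-MO array, but the nanog-like-MO1 arrays were widely spread, and the fold change of 1.86 (SE 0.36, 95% interval 1.001 to 2.72) had a limma adjusted p of 0.125. On the authors' value table it was 2.09 (adjusted p = 0.04). Its duplicate slc16a9a had a fold change of 0.75 with overlapping groups (adjusted p = 0.569).

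The 2 lower monocarboxylate genes were slc16a7, a counterpart of MCT2, and slc16a3a, the duplicate of the bright slc16a3b. The level of slc16a7 was 6.26, 6.55 and 6.24 in nanog-like-MO1 embryos, against 7.26, 7.10 and 7.05 in control-MO embryos, and its fold change was -0.78 (SE 0.13, limma adjusted p = 0.0807). That of slc16a3a was 7.19, 7.05 and 7.07 in nanog-like-MO1 embryos, against 7.99, 7.95 and 7.64 in control-MO embryos, at -0.76 (SE 0.13, adjusted p = 0.0895). For both genes the groups lay apart. On the authors' value table slc16a7 was at -1.88 (adjusted p = 0.0607) and slc16a3a at -0.52 (adjusted p = 0.37).

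Transporters of glucose and other sugars, grouped by family number, numbered 21, of which 1 rose (slc5a1) and none fell (median -0.09). The group holds all 8 slc5 genes, not all of which carry sugars, such as the iodide transporter slc5a5. The pair slc5a6a and slc5a6b is likewise counted here and not among the vitamin transporters. The largest negative value was at slc37a4, the carrier that brings glucose 6-phosphate into the endoplasmic reticulum. It read 8.32, 10.44 and 9.48 in nanog-like-MO1 embryos, against 10.94, 10.61 and 10.39 in control-MO embryos. Nanog-like-MO1 replicate 1 was far below the rest while replicate 2 was within the control-MO range, so the groups overlapped. The fold change was -1.23 (SE 0.51, limma adjusted p = 0.478), and the other 2 targets of slc37a4 gave -0.77 and -0.88, both without passing.

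The bicarbonate, proton, chloride and sulfate carriers numbered 29, of which 1 fell (slc13a4) and none rose (median -0.05). In this group the arrays did not overlap for 4 genes that were higher and 8 that were lower, against 7.36% and 7.97% of all targets. The share, 41.4%, was the largest of any substrate group. It was 0% for the calcium exchangers and for the vesicular and phosphate transporters. The sodium-dependent bicarbonate transporter listed as SLC4A10 (1 of 2) was at 8.51, 7.93 and 9.51 in nanog-like-MO1 embryos, against 7.22, 7.13 and 7.58 in control-MO embryos. The groups lay apart with a wide spread among nanog-like-MO1 arrays, and the fold change was 1.34 (SE 0.39, limma adjusted p = 0.297). In the slc26 family, 5 of 6 genes had groups that did not overlap, 2 higher and 3 lower, against 15.3% of all targets in either direction. This was the largest share among families with at least 5 genes, and the family was picked out by that value. The share was 0% in the slc2, slc8, slc12, slc17, slc30 and slco families. None of the slc26 genes passed the test, and 4 of the 6 targets were below the 25th percentile of level.

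Several of the genes above carry sulfate or the activated sulfate donor, and their differences did not point one way. They were brought together after their values were seen. Besides slc13a4 (-1.46) and slc26a1 (-0.53), the Golgi carrier of activated sulfate slc35b3 was lower. It read 11.53, 11.52 and 11.55 in nanog-like-MO1 embryos, against 12.02, 12.12 and 12.19 in control-MO embryos. The groups lay apart, at -0.58 (SE 0.10, limma adjusted p = 0.0866). The counterpart of the sulfate transporter SLC26A11 was higher, with slc26a11 at 12.32, 12.30 and 12.38 in nanog-like-MO1 embryos, against 11.98, 11.88 and 12.07 in control-MO embryos. Here too the groups lay apart, at 0.36 (SE 0.10, adjusted p = 0.278). The renal sulfate transporter gene slc13a1 was dim and close to 0 (0.02). Of 21 listed genes of sulfate activation and sulfated glycans, 15 had a target and none passed (median -0.04). The largest difference was at papss2b, which makes the activated sulfate donor, at 9.74, 9.22 and 9.56 in nanog-like-MO1 embryos, against 8.50, 8.47 and 8.58 in control-MO embryos. All of its nanog-like-MO1 arrays were above all control-MO arrays (0.99, SE 0.15, limma adjusted p = 0.0607), while the next gene, ext1b, was at 0.39. On the authors' value table papss2b was at 1.39 and passed (limma adjusted p = 0.0217).

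Metal transporters for zinc, copper, manganese, iron and magnesium numbered 18, and none passed (median 0.05). Before adjustment limma put 0 of them higher and 1 lower at the 0.05 level, or 5.56% of the group, against 10.3% of all targets. Single genes ran from -0.38 (slc39a3) to 0.38 (slc39a13, a zinc transporter of the secretory pathway). The zinc transporter slc39a6 had the brightest target of the group and a fold change of 0.01. The iron importer slc11a2 was at 0.04, and the mitochondrial iron carriers slc25a37 and slc25a28 at -0.05 and -0.003. Of 22 listed genes of iron handling, 20 had a target and none passed (median -0.01). The largest differences there were at the ferric reductase gene cybrd1 (-0.53, limma adjusted p = 0.211) and at the hepcidin regulator gene hjv (-0.50, adjusted p = 0.834).

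Mitochondrial carriers of the slc25 family, which link the cytosol and the matrix, numbered 43, and none passed (median -0.07). At an unadjusted p under 0.05 limma gave 1 higher and 5 lower, or 13.95% of the carriers, close to the 10.3% of all targets. Values ran from -0.63 to 0.58. The lowest was slc25a38a, a glycine importer needed for heme synthesis, at 7.31, 8.02 and 7.02 in nanog-like-MO1 embryos, against 7.86, 8.42 and 7.97 in control-MO embryos. These groups overlapped (SE 0.28, adjusted p = 0.528). The ornithine carrier slc25a15b was at -0.61 (adjusted p = 0.389) and slc25a36a, a pyrimidine nucleotide carrier, at 0.58 (adjusted p = 0.433). The ADP/ATP carriers differed in their values, with slc25a5 at 0.06 and slc25a4 at -0.47 (adjusted p = 0.421).

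In the remaining groups no gene passed. Of 17 nucleotide sugar transporters (the whole slc35 family), 11 had fitted values below 0 (median -0.13), with slc35b3 the lowest. Over all targets 53.0% had fitted values below 0. Of 21 organic ion, bile acid, urea and drug transporters (median -0.05), the urea transporter slc14a2 had the largest difference. It was at 9.78, 10.13 and 9.96 in nanog-like-MO1 embryos, against 9.25, 8.93 and 9.07 in control-MO embryos. The groups lay apart, at 0.87 (SE 0.14, limma adjusted p = 0.0735). The drug and proton exchanger slc47a1 was at 7.34, 7.74 and 7.90 in nanog-like-MO1 embryos, against 8.11, 8.27 and 8.43 in control-MO embryos, also apart, at -0.61 (SE 0.17, adjusted p = 0.293). Its other targets, none of which passed, gave -0.21, -0.05 and -0.51. Of 6 nucleoside transporters (median 0.07), slc29a2 read 11.08, 10.88 and 10.63 in nanog-like-MO1 embryos, against 10.17, 9.39 and 9.85 in control-MO embryos. Its groups did not overlap, at 1.06 (SE 0.22, adjusted p = 0.155), while the brighter slc29a1a was at 0.05.

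The 16 vitamin, folate, heme and choline transporters had a median of -0.01. In this group the riboflavin transporter slc52a3-2b was at 8.30, 8.42 and 8.27 in nanog-like-MO1 embryos, against 7.99, 7.31 and 7.66 in control-MO embryos. The groups lay apart, at 0.68 (SE 0.18, limma adjusted p = 0.26), while the related slc52a2 was at -0.30 (adjusted p = 0.441). The 14 vesicular and phosphate transporters had a median of -0.04 and no gene with an unadjusted p under 0.05. Their largest difference was at slc17a6a, a vesicular glutamate transporter (-0.32), and their brightest target that of the phosphate transporter slc20a1b (-0.07). The 9 calcium exchangers (median 0.06) likewise had none under 0.05 before adjustment, with slc24a3 at -0.38 and the bright slc24a4a at 0.06. A second target of slc24a3 was at 0.03. Of 7 fatty acid and acetyl-CoA transporters (median -0.03), slc27a4 was at 0.55 with overlapping groups and the bright slc27a1a at -0.03. The 3 genes of other families were slc66a1, slc66a3 and slc67a1.

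**Figure D3:**
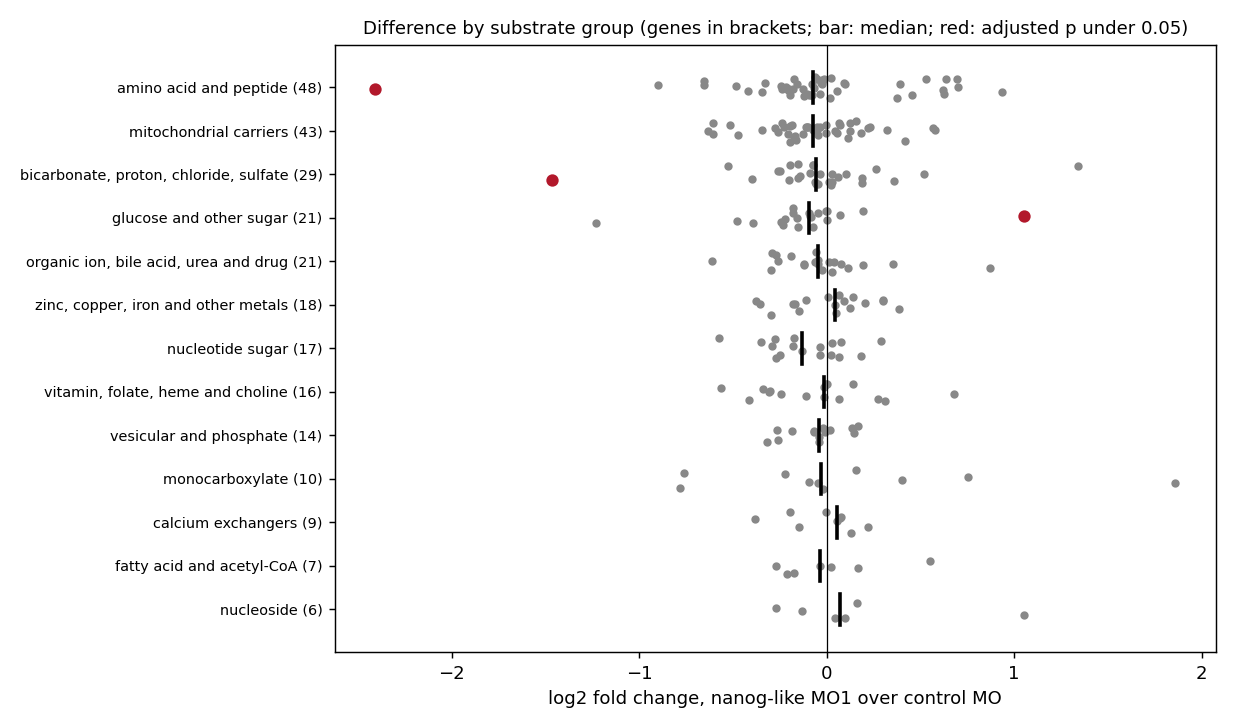
Log2 fold change, nanog-like-MO1 over control-MO (x axis), of each solute carrier gene by substrate group, with the number of genes in brackets, the group median as a bar and the genes with an adjusted p under 0.05 in red. Group medians lie between -0.13 (nucleotide sugar) and 0.07 (nucleoside), and the red genes stand outside their groups; the 3 genes of other families are not drawn.

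Transporters of other families, which are driven by ATP, were set beside the solute carriers. Of 20 ABC transporter genes with a target none passed (median -0.04), the largest differences being at abcg2a (0.62, limma adjusted p = 0.23) and abcd3a (0.51, adjusted p = 0.342). Of 18 ion pump genes 1 fell and none rose (median -0.10), against 0.39% lower and 0.257% higher over all targets. The largest positive fold change among these pump genes, 1.26, did not pass. The gene that fell was atp1b1a, a beta subunit of the sodium-potassium pump that maintains the gradient used by many solute carriers. It read 10.55, 10.82 and 11.21 in nanog-like-MO1 embryos, against 12.12, 12.40 and 12.71 in control-MO embryos. The groups lay apart and the fold change was -1.55 (SE 0.22, adjusted p = 0.0476). That value is close to the threshold, and the alternatives in the closing section do not cover this gene.

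The fold changes of the 262 genes from the per-array intensities and from the authors' value table correlated with a Pearson r of 0.914. This is across genes measured on the same 6 arrays and describes the agreement of the processing, not of replicates. Among the genes away from equality were slc26a1, slc16a7 and slc43a3b, which differed more in the authors' value table (-1.52, -1.88 and -1.71). The gene slc5a1 passed the test on the per-array intensities and lay near 0 in the authors' value table.

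**Figure D4:**
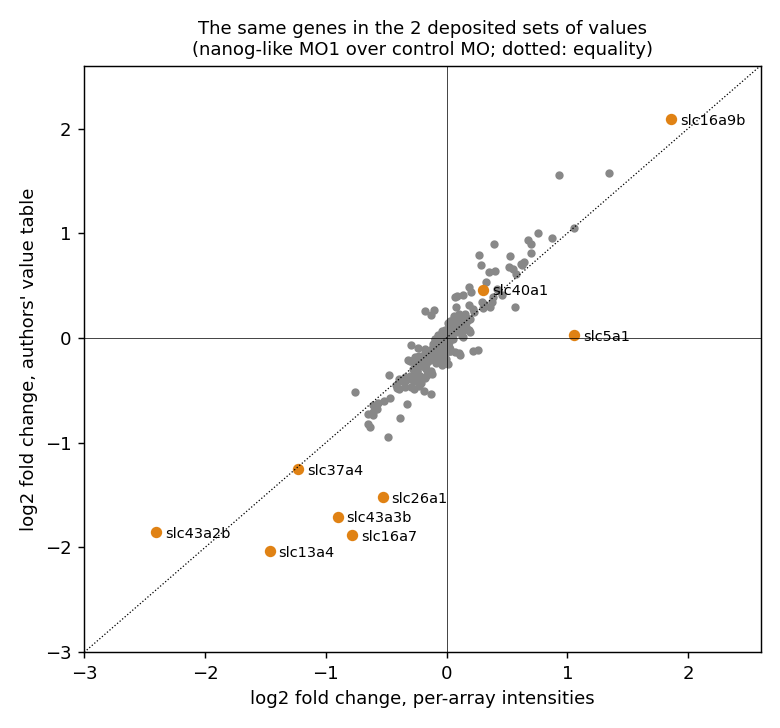
Log2 fold change of each solute carrier gene, nanog-like-MO1 over control-MO, from the per-array intensities (x axis) and from the authors' value table (y axis), with equality dotted and 9 named genes in orange. Most genes follow the line; slc5a1 lies at 1.05 on the x axis and 0.03 on the y axis, and slc26a1 at -0.53 and -1.52.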

How the data were processed

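The authors deposited for each array 1 intensity per target, the mean brightness of its probes on a linear scale and not normalized, with the number of probes and how much they varied (coefficient of variation), as the file headers name them; how probes were filtered is not stated there. They also deposited a value table of intensities that per the submitters' processing notes came from RMA, with no version named in the sources used here. Per the labels' protocols, Trizol was used for RNA and NimbleGen did the Cy3 labelling. Medians of the value table's columns ran from 179 to 200; its scaling and centring beyond the name RMA are unknown.

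Per-array intensities were background corrected with normexp (offset 50), quantile normalized, taken to log2 and fitted across all 38489 targets by limma's lmFit and eBayes (version 3.58.1, under R 4.3.3; tests 2-sided, with no term besides group), with 95% intervals from the moderated fit. Only the limma fit was tested on simulated log2 values. Background correction and quantile normalization were not part of that test. No column of per-sample values was left out (0 not used).

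Targets were named through RefSeq accession (62 genes), a current symbol (64), an older symbol (88), a map marker placed on the target's own chromosome (29) or a design symbol that the gene table does not hold (19). The gene table is RefSeq's of GRCz12tu, used for names only; coordinates are Zv7, as in the array design. Another 5 targets were given no name because the design's human homologue contradicted the marker. Reverse-strand targets were not named either. Targets without a name are not among the genes, but they stayed in the fit, in the adjustment and in the shares of all targets. No sequence was printed, since none was in the tables used here.

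Genes named are nanog, slc40a1 and slc26a1, solute carrier genes with an adjusted p under 0.05, the 10 largest positive and 10 largest negative fold changes, the 12 brightest, the brightest and the most different of each family group, and of other lists those that passed or the 2 most different. Further names (such as slc26a11, slc11a2 and the duplicates) were chosen after their values were seen. Members and lists were chosen with earlier results of these data known. Alternatives are given in the closing section.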

Additional observations from a re-analysis of the deposited data

How the results depend on the processing

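Of 16 alternatives, slc43a2b kept its direction and call in all, slc13a4 kept its call in 10 and slc5a1 in 5. Both slc13a4 and slc5a1 kept their direction in the 16. In 1 of them, the target with the highest normalized mean, these genes kept their main targets, so nothing could change. Leaving out dim targets, the intensity trend and the replicate block leave a fold change as it is, so only the call could move there. The count of solute carrier genes lower was 2 and higher 1. With an intensity trend in eBayes, 4 were lower (slc16a7 and slc26a1 added) and 0 higher, where 15 were higher at an unadjusted p under 0.05. Without background correction 0 were higher in limma (15 unadjusted). The array number range as a term, 1 of the 16, sets nanog-like-MO1 replicate 3 alone against the controls. It does not compare the whole groups, so its calls are not listed, although the counts of calls kept above include it. On the authors' values there were 3 lower (slc26a1 added) and 1 higher (slc16a9b, not slc5a1). Leaving out each array in turn gave 1 to 2 lower and 0 to 0 higher (12 to 20 higher unadjusted). The fold change of slc26a1 passed at -1.52 on the authors' value table and at -0.53 with the trend (adjusted p = 0.0447); it ran from -0.57 to -0.47 without single arrays, and has no value where dim targets are left out. That of slc40a1 ran from 0.14 to 0.49 without single arrays (adjusted p from 0.427 to 0.935), was 0.61 with the range term and passed in none of the 16.

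Replicate numbers are shared by the groups, but same-numbered arrays deviated together only for number 3 (r = -0.01, -0.10 and 0.17), so they are not taken as pairs. With the number as a replicate block, 1 solute carrier gene was lower (slc43a2b) and 0 higher in limma (18 higher unadjusted); slc13a4 then had an adjusted p of 0.0559 and slc5a1 of 0.148. Over all targets the main setting called 99 higher and 150 lower. The block gave 46 and 88, the authors' values 163 and 206, and leaving out single arrays 34 to 67 and 59 to 120, lowest without control-MO replicate 3. The cause of these differences was not tested. Targets near background have compressed fold changes, and 3 arrays a group limit the precision.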

Other observations

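Many zebrafish genes exist as a and b duplicates, and 21 such pairs of solute carrier genes had both members on the array. The fitted log2 fold changes of nanog-like-MO1 over control-MO had one sign in 9 pairs and opposite signs in 12, with a median absolute gap of 0.223. In 4 pairs the gap was at least 0.5. For the amino acid exchanger heavy chain, slc3a2a was at -0.65 (limma adjusted p = 0.154) and slc3a2b at 0.37 (adjusted p = 0.848). For the heme transporter, slc48a1a was at -0.57 (limma adjusted p = 0.227), and its second target at -0.56 with the groups apart (adjusted p = 0.0945). Its duplicate slc48a1b was at 0.14 (adjusted p = 0.724), with its other targets at 0.13 and 0.02. The other pairs were slc16a3 (a at -0.76, b at -0.04) and slc16a9 (a at 0.75, b at 1.86). No member of these 4 pairs passed the threshold, and the gaps themselves were not tested. Of the 78 solute carrier genes with several targets, the targets gave one sign for 56 genes and opposite signs for 22.

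A pair of system A transporter genes lies side by side in the array design on Zv7 chromosome 4, slc38a4 at 447328 to 483613 and slc38a2 at 517341 to 534938. The level of slc38a4 was 9.46, 8.32 and 9.86 in nanog-like-MO1 embryos, against 8.56, 8.59 and 8.61 in control-MO embryos. Nanog-like-MO1 replicate 2 was below the control-MO arrays and the other nanog-like-MO1 arrays above them, at a log2 fold change of 0.63 (limma adjusted p = 0.664). For both genes nanog-like-MO1 replicate 3 was the highest array.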
